A study of Mus musculus with 22 samples.

Results

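The genes described here are 28 that make or control sterols and fatty acids. They were read out of 53342 genes counted in 22 RNA libraries of mouse pancreatic cancer. The list of 28 was chosen with earlier results of these data known. By role, 18 encode enzymes of cholesterol synthesis from acetyl-CoA (Acat2, Hmgcs1, Mvk, Pmvk, Mvd, Idi1, Fdps, Fdft1, Sqle, Lss, Cyp51, Tm7sf2, Msmo1, Nsdhl, Hsd17b7, Sc5d, Dhcr7 and Ebp), 5 encode regulators or carriers of sterols (Insig1, Srebf1, Srebf2, Scap and Stard4), and 5 encode enzymes of fatty acid synthesis (Fasn, Acly, Scd1, Scd2 and Elovl6). All 28 were found in the count tables, and all 28 passed the filter on low counts in every comparison. The libraries come from 10 cancer cell lines and 12 whole tumors of a K-Ras-driven mouse model on the Bl6 background, with the mutant K-Ras and p53 alleles recombined. Each line or tumor either lacked microRNA-21 (miR21 KO, 5 lines and 8 tumors) or carried it (WT, 5 lines and 4 tumors), and none was treated. Each line was grown out of the dissociated tumor of 1 animal, had been passaged at least 8 times so that fibroblasts were lost, and was used at passage 10 to 14 in medium with 5% fetal bovine serum. Tumors were frozen whole and hold cells of the host as well as cancer cells. The Cre driver and the ages of the animals are not given in the sources used here. Titles shared by a line and a tumor mark 5 animals as the source of both, and replicates are numbered here in the order in which the samples are listed.

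Cholesterol is built from acetyl-CoA through mevalonate, the isoprenoid farnesyl diphosphate, squalene and lanosterol. The transcription factors SREBP1 and SREBP2, encoded by Srebf1 and Srebf2, switch on the genes of this path and of fatty acid synthesis. SCAP carries them out of the endoplasmic reticulum when membrane cholesterol is low, and INSIG1 holds SCAP back when cholesterol is high. INSIG1 is itself an SREBP target, so its mRNA is widely read as a marker of the state of the path. Proliferating cancer cells need sterols and fatty acids for membranes and can take them from serum or make them.

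Library totals were 24547650 to 31118113 counts, and values below are CPM, the counts scaled to a common library size with TMM factors (counts per 1e6). Mir21a, the targeted gene, had 0 counts in all 22 libraries, WT included. A short microRNA gene is poorly caught by mRNA libraries, so these counts do not check the genotype labels. The lines had high levels of the epithelial genes Krt8 (2867 ± 704 CPM in WT lines and 2320 ± 361 in KO lines, SD) and Cdh1 (1139 ± 88.6 and 1248 ± 320). Epcam, another epithelial marker, was low in them, at 23.5 ± 28.4 and 40.96 ± 36.2 CPM, against 600.5 ± 321 in KO tumors. Markers of islets and fibroblasts were at or near 0 in the lines. Of 5 islet genes, all had 0 counts in the KO lines, and the summed level of 9 fibroblast genes was 2.23 to 15.97 CPM in lines against 1935 to 12600 CPM in tumors. Whole tumors therefore mix cell types, and in them fewer cancer cells and less of an mRNA per cancer cell cannot be told apart. A few libraries stood apart in their markers. Summed acinar genes reached 2785 CPM in KO tumor 4, 1255 CPM in KO tumor 8 and 521 CPM in WT tumor 4. Skeletal muscle genes reached 1278 CPM in WT tumor 3, and hepatocyte genes 377 CPM in WT line 3. The counts of some members are uncertain because their sequence or position is shared. Of the 75-base windows of the longest coding transcript, the share also found in another annotated gene was 80.4% for Fdps, 40.7% for Acat2 (most of it in Acat3), 29.1% for Idi1 and 25.4% for Fdft1. Fdft1 overlaps Ctsb, which lies on the other strand and had 674% of the counts of Fdft1. Cyp51 overlaps Akap9 and Srebf1 overlaps Rai1 in the same way, with 49.2% and 54.8%, and Tm7sf2 overlaps Vps51 on its own strand, with 120% of its counts. The strand setting of the counting is not given in the sources used here.

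Scd2, which encodes a stearoyl-CoA desaturase that makes monounsaturated fatty acids, had the highest level of the 28 in every group. Per kilobase of annotated exon it stood at 734 ± 183 CPM per kb in WT lines (SD, n = 5), 749 ± 87.7 in KO lines (n = 5), 174 ± 99.5 in WT tumors (n = 4) and 140 ± 39.4 in KO tumors (n = 8). Scd1, its paralog, came next in lines, at 172 ± 64.6 CPM per kb in WT and 170.0 ± 42.7 in KO. In the WT lines Acly (103 ± 15.97 CPM per kb), Cyp51 (102 ± 8.86), Hmgcs1 (94.8 ± 16.8), Srebf2 (92.0 ± 14.8), Fasn (83.5 ± 22.3) and Insig1 (79.1 ± 22.04) followed, and these neighbours differed by less than their spread. In tumors Scd1 stood lower in the order, at rank 9 of 28 in WT (23.6 ± 12.0 CPM per kb) and rank 10 in KO (17.9 ± 14.8), behind Acly, Srebf2, Cyp51 and Hmgcs1. Idi1 (6.57 ± 1.22 CPM per kb in WT lines) was lowest in all 4 groups. Levels per kb depend on the exon length, here the union of all annotated exons of the gene. The 28 genes together took 9607 to 13740 CPM in the WT lines and 9977 to 12490 CPM in the KO lines. In the WT tumors they took 2326 to 4908 CPM and in the KO tumors 2047 to 4170 CPM. No tumor reached the lowest line.

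**Figure D1:**
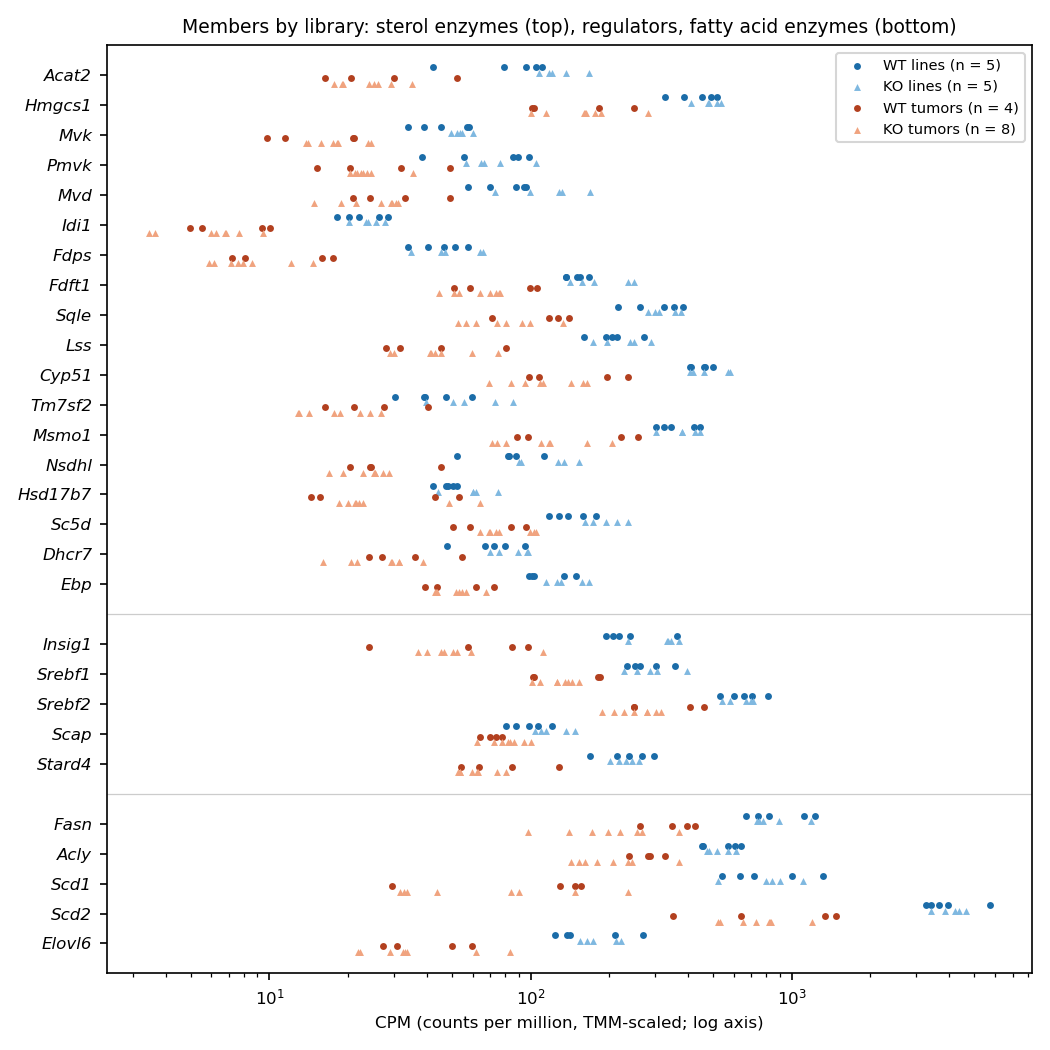
Level of each of the 28 genes in every library, in CPM on a log axis. Each point is 1 library, blue for lines and red or orange for tumors, with circles for WT and triangles for KO. Tumor points lie left of line points for nearly all genes, and Scd2 lies farthest right, between 351 and 5737 CPM.

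The first comparison asks how the whole tumor differs from the cancer cells grown out of such tumors. Every one of the 28 genes had a lower level in tumors than in lines in both genotypes. With edgeR quasi-likelihood tests on 18662 genes (adjusted p under 0.05), 27 of 28 fell in WT and 28 of 28 in KO. Of all genes tested, 18.5% were called lower in WT and 22.9% in KO, with 28% and 34.2% called higher. The median log2 fold change of the 28 was -1.39 in WT and -1.80 in KO, where the median over all genes was 0.13 and 0.17. In WT 23 of 28 genes had all 4 tumors below all 5 lines, an order shown by 11.1% of all genes. In KO 27 of 28 had all 8 tumors below all 5 lines, against 13.1% of all genes. These shares describe a list chosen with earlier results of these data known, and its genes vary together. The exception in WT was Hsd17b7 (log2 fold change -0.61 ± 0.39, SE, adjusted p = 0.208). By role, the median was -1.39 in WT and -1.71 in KO for the 18 sterol enzymes, -0.98 and -1.32 for the 5 regulators, and -2.07 and -2.22 for the 5 fatty acid enzymes. The WT and KO values come from separate libraries but from 1 fit.

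**Figure D2:**
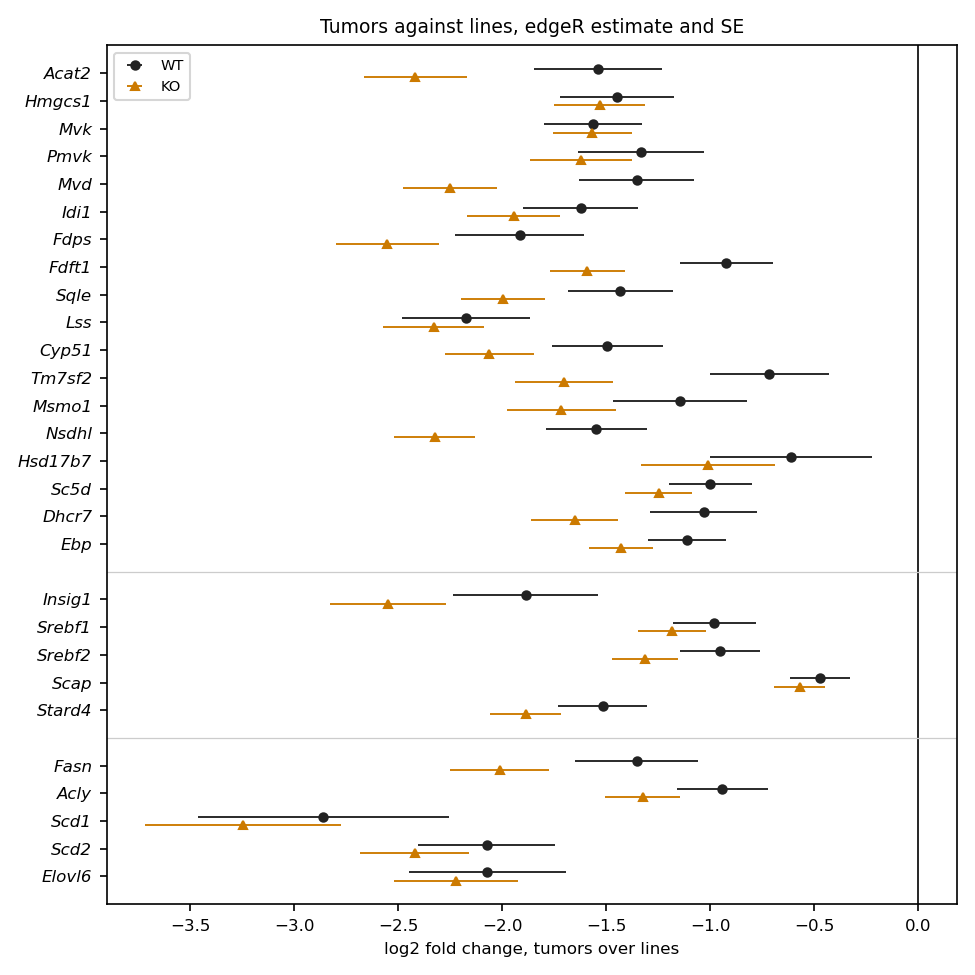
Log2 fold change of tumors over lines for each gene, with its standard error from the edgeR fit, in WT (black circles, 4 tumors and 5 lines) and KO (orange triangles, 8 tumors and 5 lines). All 56 estimates lie left of 0, from -0.47 (Scap in WT) to -3.25 (Scd1 in KO).

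Among the sterol enzymes, the first steps make mevalonate and activate it. Hmgcs1, the synthase that joins acetyl-CoA to acetoacetyl-CoA and an SREBP2 target, stood at 491, 455, 516, 388 and 327 CPM in the WT lines and at 412, 483, 538, 517 and 477 CPM in the KO lines. The WT tumors had 249.1, 102, 183 and 103 CPM, and the 8 KO tumors ran from 100.4 to 280.5 CPM (median 162). No tumor reached the level of any line, and Hmgcs1 fell by 2.73-fold in WT (log2 -1.45 ± 0.27, adjusted p = 0.000293) and 2.89-fold in KO (log2 -1.53 ± 0.22, adjusted p = 1.02e-05). Acat2, the cytosolic thiolase that makes acetoacetyl-CoA, stood at 96.3, 111, 78.8, 105 and 42.2 CPM in the WT lines and at 108, 118, 121, 137 and 168 CPM in the KO lines. Its WT tumors had 52.1, 16.4, 30.1 and 20.5 CPM and its KO tumors ran from 17.6 to 35.1 CPM (median 24.6). WT tumor 1 exceeded WT line 5, while the KO groups did not overlap, with a log2 fold change of -1.54 ± 0.31 in WT and -2.42 ± 0.25 in KO. Mvk, mevalonate kinase, stood at 45.4, 58.1, 38.9, 57.2 and 33.8 CPM in the WT lines and at 52.1, 49.7, 54.7, 53.7 and 60.1 CPM in the KO lines. In tumors Mvk was lower than in every line of the same genotype, at 21.04, 11.5, 20.9 and 9.76 CPM in WT and from 13.8 to 24.5 CPM (median 17.9) in KO, a fall of 2.96-fold in WT and 2.97-fold in KO. Mvd, the decarboxylase that ends the mevalonate part, stood at 69.95, 94.1, 57.7, 96.4 and 87.8 CPM in the WT lines and at 99.3, 73.3, 128, 132 and 169 CPM in the KO lines. Mvd had 48.9, 20.9, 33.04 and 24.2 CPM in the WT tumors and ran from 14.8 to 31.2 CPM (median 27.98) in the KO tumors. It fell in both genotypes without overlap, by 2.56-fold in WT and 4.76-fold in KO. Pmvk, the kinase between these 2 steps, fell by 2.52-fold in WT and 3.08-fold in KO.

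Isoprenoids and squalene come next. Idi1, the isomerase that sets up chain growth, stood at 28.5, 20.2, 21.96, 26.3 and 18.2 CPM in the WT lines and at 20.2, 23.4, 25.5, 27.6 and 23.8 CPM in the KO lines. Its tumors had 10.1, 4.95, 9.34 and 5.51 CPM in WT and ran from 3.46 to 9.41 CPM (median 6.51) in KO. All tumors were below all lines, with a log2 fold change of -1.62 ± 0.28 in WT and -1.94 ± 0.22 in KO. Fdps, farnesyl diphosphate synthase, stood at 33.95, 46.5, 40.6, 57.6 and 51.1 CPM in the WT lines and at 46.9, 34.9, 45.5, 63.9 and 65.5 CPM in the KO lines. Tumors had 15.9, 7.2, 17.6 and 8.06 CPM in WT and ran from 5.84 to 14.7 CPM (median 7.76) in KO, and Fdps showed the lowest fold change of the sterol enzymes in KO (log2 -2.55 ± 0.25), next to -1.92 ± 0.31 in WT. Most of its sequence is shared with other annotated genes, so its counts are uncertain. Sqle, squalene epoxidase, the first enzyme of the path that uses oxygen and a drug target, stood at 263, 354, 382, 324 and 216 CPM in the WT lines and at 311, 281, 358, 376 and 299 CPM in the KO lines. The WT tumors had 139.9, 71.3, 118 and 128 CPM and the KO tumors ran from 52.8 to 133 CPM (median 77.4). Sqle fell by 2.7-fold in WT (adjusted p = 0.000153) and 3.99-fold in KO (adjusted p = 2e-07), and no tumor reached a line. Fdft1, squalene synthase, fell by 1.9-fold and 3.01-fold.

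Squalene is then closed into the rings of lanosterol and trimmed to cholesterol. Lss, the cyclase that forms lanosterol, stood at 159.8, 205, 214, 195 and 273 CPM in the WT lines and at 241, 173, 197, 248 and 288 CPM in the KO lines. WT tumors had 80.3, 31.6, 45.3 and 28.01 CPM and KO tumors ran from 28.8 to 75.1 CPM (median 42.4). Lss showed the lowest fold change of the 18 sterol enzymes in WT (log2 -2.18 ± 0.31, adjusted p = 1.59e-05), and in KO the value was -2.33 ± 0.24. Cyp51, lanosterol demethylase, stood at 409, 462, 466.5, 501 and 412 CPM in the WT lines and at 462, 408, 419.9, 571 and 579 CPM in the KO lines. Its tumors had 236, 98.7, 196 and 108 CPM in WT and ran from 69.3 to 165 CPM (median 109.9) in KO, below every line. Nsdhl, a dehydrogenase of C4 demethylation encoded on the X chromosome, stood at 82.5, 112, 87.9, 82.1 and 52.4 CPM in the WT lines and at 90.5, 91.7, 134, 127 and 154 CPM in the KO lines. In tumors it had 45.3, 20.3, 24.4 and 24.2 CPM in WT and ran from 16.8 to 28.6 CPM (median 25.3) in KO. The groups did not overlap, and the fall was 2.92-fold in WT and 5.01-fold in KO. Hsd17b7, the ketosteroid reductase of the same step, stood at 42.4, 50.3, 52.4, 48.4 and 47.5 CPM in the WT lines and at 59.9, 44.3, 60.1, 61.8 and 74.8 CPM in the KO lines. WT tumors had 52.97, 14.4, 43.2 and 15.6 CPM, and KO tumors ran from 18.5 to 63.9 CPM (median 21.8). Tumors split into 2 levels, with WT tumors 1 and 3 and KO tumors 6 and 7 at the level of the lines and the others far below it. Hsd17b7 passed the test in KO (log2 -1.01 ± 0.32, adjusted p = 0.0114) and not in WT. Tm7sf2, a sterol reductase, passed narrowly in WT (log2 -0.72 ± 0.29, adjusted p = 0.045) and lost the call with DESeq2 (adjusted p = 0.0612), with RLE or upper quartile factors (0.0721 and 0.0818), without the 3 tumors of highest acinar means (0.0673), and without WT line 1, 2, 3 or 4 or WT tumor 2, 3 or 4 (0.0522 to 0.148). In KO its log2 fold change was -1.70 ± 0.24 (adjusted p = 6.44e-06). The other 4 of the late steps were called lower in both genotypes. Msmo1, the C4 methyl oxidase, fell by 2.21-fold in WT and 3.29-fold in KO, Sc5d, the C5 desaturase, by 2-fold and 2.38-fold, Dhcr7, the last reductase, by 2.04-fold and 3.14-fold, and Ebp, a sterol isomerase, by 2.16-fold and 2.69-fold.

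All 5 regulators fell in both genotypes, and in each the tumors lay below every line of their genotype. Insig1, the sterol-sensing anchor of SCAP, stood at 194, 362, 207, 218 and 241 CPM in the WT lines and at 371, 237, 331, 344 and 336 CPM in the KO lines. WT tumors had 97.9, 57.6, 84.9 and 24.01 CPM and KO tumors ran from 36.9 to 111 CPM (median 48.6). Of the regulators it had the lowest fold change, log2 -1.89 ± 0.35 in WT (adjusted p = 0.000243) and -2.55 ± 0.28 in KO (adjusted p = 4.61e-07). Srebf2, which encodes SREBP2, stood at 529, 602, 657, 811 and 705 CPM in the WT lines and at 696, 578, 539, 712 and 666 CPM in the KO lines. WT tumors had 406, 249.3, 461 and 248 CPM, and KO tumors ran from 188 to 315 CPM (median 264). Srebf2 fell by 1.94-fold in WT and 2.49-fold in KO. Srebf1, which encodes SREBP1, the form that drives fatty acid genes, stood at 262, 251, 235, 357 and 301 CPM in the WT lines and at 304, 288, 228, 395 and 255 CPM in the KO lines. WT tumors had 181, 103, 184 and 102 CPM and KO tumors ran from 101 to 153 CPM (median 131), a fall of 1.97-fold in WT and 2.28-fold in KO. Stard4, a carrier of cholesterol between membranes, fell by 2.86-fold and 3.7-fold. Scap changed least of the 28 genes, from 99.04 ± 15.8 CPM in WT lines to 71.3 ± 5.94 in WT tumors (SD) and from 122 ± 19.1 to 82.4 ± 12.04 CPM in KO, and still fell in both (adjusted p = 0.0119 and 0.000536).

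All 5 fatty acid enzymes fell in both genotypes, and Scd1 had the lowest fold change of the 28 in both. Scd1, the desaturase most strongly tied to SREBP1 and LXR, stood at 714, 1001, 633, 1314 and 540.4 CPM in the WT lines and at 903, 521, 795, 1099 and 841 CPM in the KO lines. WT tumors had 148, 156, 129 and 29.4 CPM, and KO tumors ran from 31.7 to 237 CPM (median 64.02). Tumors differed widely among themselves and all lay below every line, with a log2 fold change of -2.86 ± 0.60 in WT (adjusted p = 0.000772) and -3.25 ± 0.47 in KO (adjusted p = 1.12e-05). Scd2 stood at 3405, 3675, 3955, 5737 and 3278 CPM in the WT lines and at 4629, 3853, 3400.0, 4220.0 and 4372 CPM in the KO lines. Its WT tumors had 1481, 351, 1337 and 639 CPM and its KO tumors ran from 524 to 1196 CPM (median 776). Scd2 fell by 4.21-fold in WT and 5.36-fold in KO, and no tumor reached a line. Elovl6, the elongase of saturated and monounsaturated chains, stood at 211, 137, 141, 269.9 and 124 CPM in the WT lines and at 221, 213, 155, 164 and 173 CPM in the KO lines. WT tumors had 49.9, 27.3, 59.9 and 30.9 CPM and KO tumors ran from 21.8 to 83.3 CPM (median 32.7), a fall of 4.21-fold in WT and 4.67-fold in KO. Fasn, fatty acid synthase, stood at 818, 743, 666, 1118 and 1226 CPM in the WT lines and at 752, 735, 777, 890.3 and 1185 CPM in the KO lines. Fasn had 425, 262, 396 and 346 CPM in the WT tumors and ran from 97.7 to 369 CPM (median 209) in the KO tumors. It fell by 2.56-fold in WT (adjusted p = 0.00102) and 4.04-fold in KO (adjusted p = 1.18e-06). Acly, which cuts citrate to cytosolic acetyl-CoA, fell least of the 5, by 1.92-fold and 2.51-fold.

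In the 5 animals with both a line and a tumor, the direction could be read within the animal, with 1 library of each and no test. In 4 of them (KPC202, KPC232, KPC21171 and KPC2157) all 28 genes were lower in the tumor, with a median log2 ratio of -2.09, -1.36, -1.76 and -1.92. In KPC190, a WT animal, 26 of 28 were lower and the median was -0.89. The exceptions in KPC190 were Tm7sf2 (0.048) and Hsd17b7 (0.32). The lowest ratios were those of Scd1 in the 2 KO animals, -4.36 in KPC21171 and -4.64 in KPC2157.

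**Figure D3:**
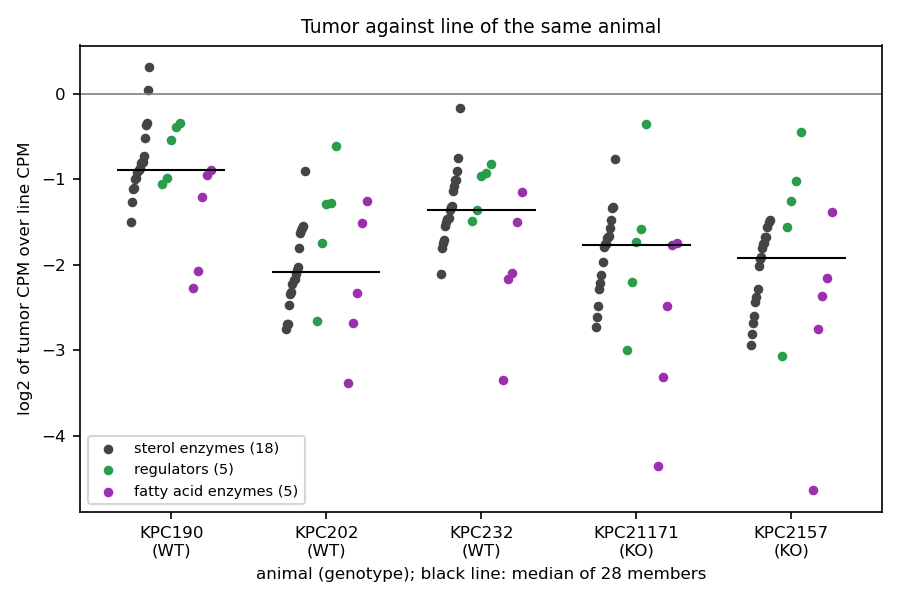
Log2 ratio of tumor CPM over line CPM within each of the 5 animals that gave both. Each point is 1 gene, coloured by role, and black lines mark the median of the 28 genes, from -0.89 in KPC190 to -2.09 in KPC202.

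Other genes of the same paths, from lists that do not include the 28, moved in part. Of 20 further genes of sterol synthesis, uptake and SREBP processing, 9 fell and 2 rose in WT, and 9 fell and 1 rose in KO. Tmem97, which encodes a binding partner of the cholesterol exporter NPC1, fell by 3.14-fold in WT and 4.04-fold in KO. Erlin1, Mbtps1 and Mbtps2, which encode an INSIG-associated protein and the proteases that release SREBPs, fell in WT by a log2 change of -1.20, -0.71 and -0.83, and in KO by -0.53, -0.76 and -0.73. Npc2, a lysosomal cholesterol carrier, rose in both (log2 0.76 and 0.41), and Npc1, its membrane partner, in WT (0.87).

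Of 30 tested genes of fatty acid synthesis, elongation, desaturation and activation, 15 fell and 6 rose in WT, and 16 fell and 6 rose in KO. The desaturases of polyunsaturated chains led. Fads2 went from 179 ± 43.9 CPM in WT lines to 27.5 ± 4.22 in WT tumors and from 173 ± 22.4 to 26.2 ± 7.66 in KO. Fads1 went from 312 ± 157 to 45.7 ± 10.2 CPM in WT and from 276 ± 36.9 to 55.6 ± 12.95 in KO. Acaca, acetyl-CoA carboxylase, fell by 2.73-fold in WT and 2.85-fold in KO, and Slc25a1, the mitochondrial citrate carrier, by a log2 change of -1.12 and -1.55. Of 10 genes of fatty acid oxidation 6 fell and 0 rose in WT, and 4 fell and 1 rose in KO (Pdk4, which restrains the use of pyruvate). Cpt1a, the gate of mitochondrial import, fell by a log2 change of -1.21 in WT and -0.58 in KO. Genes of sterol efflux and LXR response went the other way, 9 of 11 higher and 1 lower in WT and 8 higher and 1 lower in KO. Abcg1, a sterol exporter of macrophages and other cells, stood at 0.67 ± 0.85 CPM in KO lines and 32.5 ± 13.5 in KO tumors, and rose in WT as well. Apoe, which carries lipid out of macrophages and hepatocytes, stood at 2.40 ± 1.47 CPM in KO lines and 1591 ± 1083 in KO tumors. The member that fell was Lpcat3, which remodels phospholipids (log2 -0.87 in WT and -1.02 in KO).

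Markers of cell types and of growth moved with the same contrast. All 9 fibroblast, 9 leukocyte and 5 endothelial genes rose in tumors of both genotypes. Dcn and Lum, which define fibroblasts, had 0 counts in all lines, as did the myeloid genes Adgre1, Lyz2 and Itgam. Leukocyte genes summed to 2.86 to 6.67 CPM in lines and 492 to 2959 CPM in tumors. Of 8 epithelial genes, 2 rose and 1 fell in WT, and 2 rose and 5 fell in KO. In KO, Epcam (log2 3.87) and Sox9 (1.15) rose, while Krt7, Krt8, Krt18, Krt19 and Cdh1 fell. The sum of the 8 was 7561 to 15060 CPM in lines, 6705 to 14300 in WT tumors and 4095 to 8522 in KO tumors. Set against it, a ratio chosen after the data were seen, the sum of the 28 genes was 0.638 to 1.34 times the epithelial sum in WT lines and 0.979 to 1.10 in KO lines. In WT tumors this ratio was 0.185 to 0.431, below every line, and in KO tumors 0.289 to 1.02, with KO tumor 6 alone within the range of the lines. All 12 proliferation genes fell in both genotypes, and their sum was 1914 to 4064 CPM in lines and 308 to 1072 CPM in tumors. Adipocyte genes, which mark fat with strong fatty acid synthesis of its own, summed to 176 to 306 CPM in lines and 111 to 657 CPM in tumors, highest in KO tumor 4. In KO lines Pparg (122 CPM) and Pnpla2 (81.7 CPM) made up most of that sum, while Adipoq, Plin1, Cfd and Retn had 0 counts. Of 10 tested adipocyte genes, 7 rose and 1 fell in WT, and 6 rose and 1 fell in KO. Without the 3 tumors of highest acinar means the counts were 26 of 28 lower in WT and 28 of 28 in KO. Lines also differ from tumors in culture, in medium with 5% serum, and the counts of the 2 materials were deposited apart. The parts of cell mixture, growth rate, culture and any difference in handling in the fall of the 28 genes were not tested. This design cannot tell them apart.

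The second comparison is KO against WT, made apart in lines and in tumors. MicroRNA-21 pairs through its seed, bases 2 to 8 (capitals), with mRNAs that carry the reverse complement. Its mature strand, mmu-miR-21a-5p, lies at chr11:86584120-86584141 on the minus strand (RefSeq, GRCm38.p6).
mmu-miR-21a-5p: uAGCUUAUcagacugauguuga
Of the 28 genes, 1 had a match of 7 or 8 bases in its longest annotated 3′ UTR, 3.57% against 7.21% of 20979 genes with such a UTR. It was Sc5d, with a full match (capitals) that starts at base 267 of a UTR of 3750 bases, at chr9:42255071-42255078 on the minus strand of mm10. The stretch that leads up to and holds it is shown because it is the only such match among the 28.
Sc5d 3′ UTR: taaatacgatagaaaATAAGCTA

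In lines, 0 of 28 genes passed the test between KO and WT, where 2 of 14020 genes did (0.0143%). DESeq2 and limma-voom also called 0 of the 28. At an unadjusted p under 0.05 there were 5 of 28, against 6.99% of all genes. The estimates leaned one way, with 23 of 28 above 0 and a median of 0.15, where 46.3% of all genes were above 0 and the median was -0.03. Without WT line 5 the count was 20 of 28, and without WT line 4 it was 27. The 28 varied together between lines (median pairwise r 0.402), so these signs are not independent. All 18 sterol enzymes had a positive estimate (median 0.23), against 3 of 5 regulators (median 0.07) and 2 of 5 fatty acid enzymes (median -0.01). None of the 28 had KO and WT lines that did not overlap, an order shown by 0.742% of all genes with KO higher and 0.521% with KO lower. Sc5d, the gene with the microRNA-21 match, had the smallest p. Its KO lines stood at 173, 161, 195, 237 and 214 CPM and its WT lines at 139, 178, 118, 128 and 158 CPM. Of the KO lines, 3 exceeded every WT line, and the log2 fold change was 0.44 ± 0.15 (unadjusted p = 0.0121, adjusted p = 0.713 by edgeR). Mvd (log2 0.57 ± 0.22), Acat2 (0.59 ± 0.24), Nsdhl (0.52 ± 0.21) and Hsd17b7 (0.32 ± 0.14) followed, all with an adjusted p of 0.713 or 0.714. In each of these 4 genes KO line 5 held the highest value of the 10 lines. The genes named for their role gave 0.16 ± 0.14 for Hmgcs1, 0.08 ± 0.17 for Sqle, 0.41 ± 0.19 for Insig1, 0.07 ± 0.17 for Srebf1 and -0.05 ± 0.14 for Srebf2. Fasn gave -0.07 ± 0.20, Scd1 -0.01 ± 0.26 and Scd2 0.03 ± 0.17, each smaller than its standard error. Of the 12 proliferation genes all 12 had a negative estimate in KO lines (median -0.41), with 0 called.

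In tumors, 0 of 28 genes passed, where 2 of 18125 genes did (0.011%), and DESeq2 and limma-voom again called 0 of the 28. At an unadjusted p under 0.05 there were 2 of 28, against 16.7% of all genes, and 2 of 28 is a smaller share than that. Here 24 of 28 estimates were below 0 with a median of -0.34, where 51% of all genes were above 0 with a median of 0.01. Without WT tumor 1 the estimates were below 0 for 20 of 28 with a median of -0.088, and without WT tumor 2 for 25 of 28 with a median of -0.497. The 28 varied together between tumors (median pairwise r 0.596), so these signs are not independent. Negative estimates were found for 15 of 18 sterol enzymes, 4 of 5 regulators and 5 of 5 fatty acid enzymes. None of the 28 had groups that did not overlap, where 1.12% of all genes did with KO higher and 0.789% with KO lower. Fasn had the smallest p, with a mean of 215 ± 84.2 CPM over the 8 KO tumors and 358 ± 71.7 CPM over the 4 WT tumors (SD). Its log2 fold change was -0.76 ± 0.29 (unadjusted p = 0.0226, adjusted p = 0.232 by edgeR). KO tumors 3 and 6 lay within the range of the WT tumors. Srebf2 came next, with 256 ± 45.4 CPM in KO and 341 ± 109 in WT tumors (log2 -0.45 ± 0.20, adjusted p = 0.294). The WT tumors fell into a high pair, 1 and 3, and a pair within the KO range, 2 and 4. Stard4 had 128, 63.6, 84.9 and 53.9 CPM in the WT tumors and ran from 52.9 to 80.6 CPM (median 60.96) in the KO tumors. Tm7sf2 had 40.4, 16.3, 21.1 and 27.4 CPM in the WT tumors and ran from 12.9 to 26.7 CPM (median 18.1) in the KO tumors. In both genes WT tumor 1 was the highest of the 12. Stard4 (log2 -0.44 ± 0.21), Tm7sf2 (-0.53 ± 0.26) and Sqle (-0.51 ± 0.26) followed with adjusted p of 0.316, 0.33 and 0.346. Hmgcs1 gave 0.04 ± 0.30, Insig1 -0.29 ± 0.36 and Srebf1 -0.18 ± 0.19. Scd1 gave -0.43 ± 0.59 and Scd2 -0.35 ± 0.35. Sc5d, with its microRNA-21 match, gave 0.17 ± 0.20. Markers moved alongside without passing the test. Of 8 epithelial genes 7 had a negative estimate in KO tumors (median -0.48) and of 12 proliferation genes all 12 did (median -0.59), while 11 of 12 tested acinar genes were positive (median 1.88). Skeletal muscle genes were negative in 5 of 5 (median -5.61) and islet genes positive in 5 of 5 (median 4.78). A single library weighed on the muscle value. The muscle sum was 1278 CPM in WT tumor 3, 6.99 to 37.6 CPM in the other WT tumors and 1.46 to 12.8 CPM in KO tumors. The islet sum ran from 0.0348 to 286 CPM in KO tumors, highest in KO tumor 8, and from 0 to 9.09 CPM in WT tumors. KO tumors 1, 3, 5 and 7 (32.9, 82.4, 22.15 and 59.8 CPM) also exceeded every WT tumor. Leukocyte genes were positive in 9 of 9 (median 0.24) and fibroblast genes in 8 of 9 (median 0.37). Their part in the estimates of the 28 genes was not tested.

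**Figure D4:**
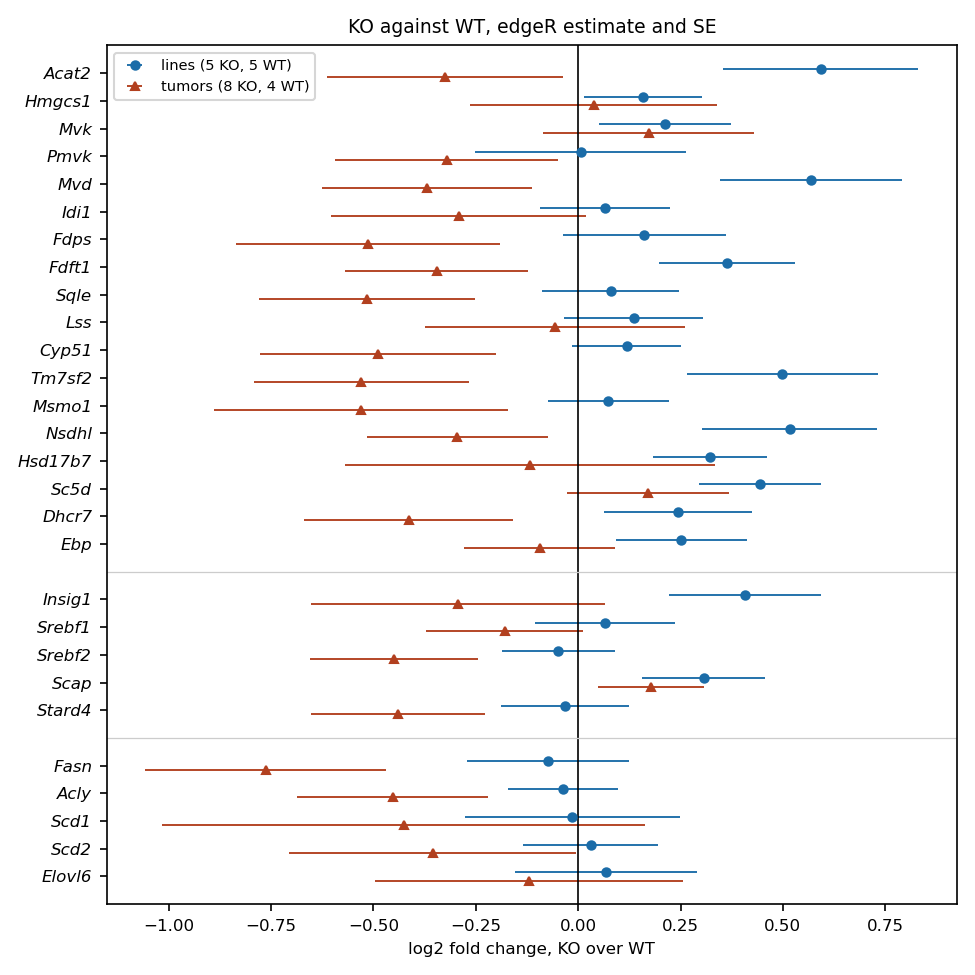
Log2 fold change of KO over WT for each gene with its standard error from the edgeR fits, in lines (blue circles) and tumors (red triangles). None of the 28 passed the test in either. Estimates in lines lie mostly right of 0 (23 of 28) and those in tumors mostly left of 0 (24 of 28).

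Whether the KO difference itself differed between tumors and lines was tested in 1 fit over all 22 libraries, which reuses the libraries of both comparisons. No gene of 18662 passed (0%), with 1540 (8.25%) at an unadjusted p under 0.05, 67 called by DESeq2 (0 of the 28) and 0 by limma-voom. Of the 28, 5 had an unadjusted p under 0.05. All 28 estimates were below 0, with a median of -0.38, against 0.04 over all genes. Without WT tumor 1, or without WT tumor 3, 25 of 28 were below 0. The 28 varied together between libraries (median pairwise r 0.402 in lines and 0.596 in tumors), so their signs are not independent. Of the 20 further genes of sterol synthesis, uptake and SREBP processing, 12 were below 0 and 8 above (median -0.06). The 5 smallest p values belonged to Tm7sf2 (log2 difference -0.99 ± 0.37, adjusted p = 0.476), Mvd (-0.90 ± 0.35), Nsdhl (-0.78 ± 0.31), Fdft1 (-0.67 ± 0.28) and Acat2 (-0.88 ± 0.39). Tm7sf2, the reductase named above, stood at 39.1, 47.4, 59.6, 39.5 and 30.2 CPM in the WT lines and at 50.5, 39.7, 55.8, 73.3 and 85.6 CPM in the KO lines. Fdft1, squalene synthase, stood at 136, 151, 136, 167 and 154 CPM in the WT lines and at 175, 157, 142, 248 and 235 CPM in the KO lines. In both the 2 highest lines were KO, and the groups overlapped. For Nsdhl the median of the KO tumors (25.3 CPM) was above 3 of the 4 WT tumors, and its estimate in tumors turned from -0.295 to 0.033 without WT tumor 1. Hmgcs1 (-0.08 ± 0.35) and Mvk (-0.0041) were closest to 0. The sign of Mvk turned under 5 other settings and that of Hmgcs1 when single libraries were left out. Marker estimates, none called, were below 0 for 8 of 8 epithelial (median -0.53), 11 of 12 proliferation (-0.18) and 5 of 5 skeletal muscle genes (-5.53). They were above 0 for 5 of 5 islet (median 5.12), 11 of 12 acinar (2.21), 7 of 9 fibroblast (1.38) and 8 of 9 leukocyte genes (0.33). Their part in the estimates of the 28 genes was not tested.

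Among tumors most of the genes had levels that ran in parallel with Hmgcs1 from library to library, though no single correlation passed the test over all genes. The measure was the correlation of log2 CPM with Hmgcs1 over the 12 tumors, with a permutation test (100000 resamples, two-sided). Of the other 27 genes, 26 had a positive Pearson r (median 0.707), against 45.8% of the 12095 other genes with a mean of at least 5 CPM (median -0.042). With a positive r and an unadjusted p under 0.05 there were 16 of 27, against 2.95% of all those genes. Adjusted over all of them, 0 genes passed by Pearson's r (0%) or by Spearman's rho. With 100000 resamples the smallest possible p is about 1e-05, and a gene alone at that floor has an adjusted p of 0.121. A single gene therefore could not pass, and the count of 0 does not decide whether any one correlation is real. Mvk was most like Hmgcs1 (r = 0.901, rho = 0.944, adjusted p over all genes = 0.822 and 0.121 by permutation), then Idi1 (r = 0.875), Lss (r = 0.817), Hsd17b7 (r = 0.812) and Cyp51 (r = 0.807). Ebp (r = -0.0801), Scap (r = 0.0493) and Dhcr7 (r = 0.217) stood apart among the sterol genes and regulators. Acly (r = 0.257) and Scd1 (r = 0.273) stood apart among the fatty acid enzymes, where Scd2 had r = 0.707 and rho = 0.874. Without the 2 tumors whose Hmgcs1 lay farthest from its median the median r was 0.700, and after centring each genotype 0.761, with 26 and 25 of 27 above 0. The highest Hmgcs1 values were those of KO tumor 7 (281 CPM) and WT tumor 1 (249.1 CPM), and the lowest those of KO tumor 4 (100.4 CPM) and WT tumor 2 (102 CPM). In the 10 lines the median r was 0.149, with 18 of 27 positive, against 47.7% of 10514 genes. With a positive r and an unadjusted p under 0.05 there were 5 of 27, against 10.5% of all genes, and 0 genes passed after adjustment over all (0%). The number of resamples kept a single gene from passing there as well. Dhcr7 was most like Hmgcs1 there (r = 0.904, rho = 0.782, adjusted p over all genes = 0.0835 and 0.206 by permutation). Without the 2 lines farthest from the median of Hmgcs1, Dhcr7 kept r = 0.673 and the median of the 27 was 0.00257. Whether the correlations differ between tumors and lines was not tested. Over all pairs of the 18 sterol enzymes the median r was 0.507 in lines and 0.646 in tumors, against 0.000263 and 0.00264 over all pairs of genes with a mean of at least 5 CPM.

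Summed markers were set against Hmgcs1 over the same 12 tumors, in 10 relations. None had an adjusted p under 0.05 by Pearson's r or Spearman's rho. The epithelial sum had r = 0.117 (permutation p = 0.716, adjusted p = 0.895; rho = 0.231, adjusted p = 0.783) and the proliferation sum r = -0.0423 (adjusted p = 0.982; rho = -0.0559, adjusted p = 0.887). Endothelial (r = -0.552, adjusted p = 0.364; rho = -0.65, adjusted p = 0.129), adipocyte (r = -0.497, adjusted p = 0.364; rho = -0.608, adjusted p = 0.135), acinar (r = -0.483, adjusted p = 0.364; rho = -0.538, adjusted p = 0.186) and leukocyte sums (r = -0.447, adjusted p = 0.364; rho = -0.664, adjusted p = 0.129) had the lowest values. Without the 2 farthest tumors these were -0.437, -0.372, -0.411 and -0.428, and the epithelial value was -0.123.

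**Figure D5:**
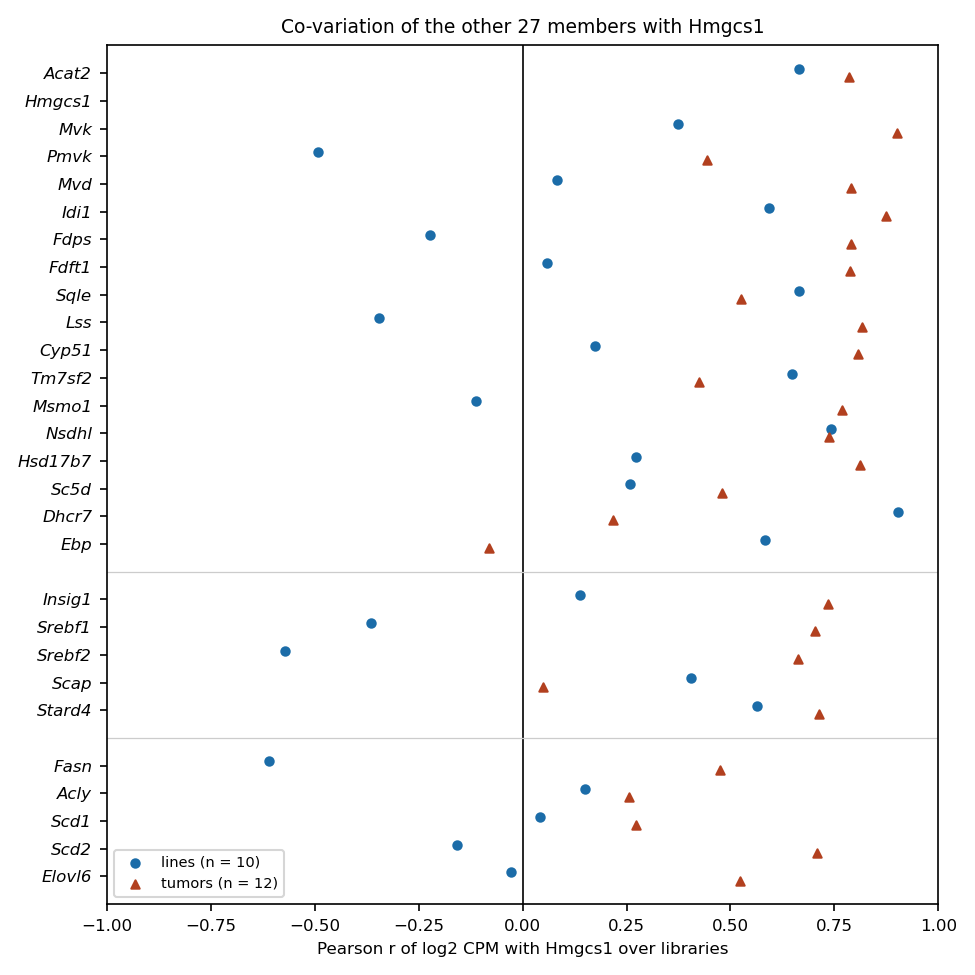
Pearson r of each of the other 27 genes with Hmgcs1, from log2 CPM over the 10 lines (blue circles) and the 12 tumors (red triangles). Tumor values run from -0.0801 (Ebp) to 0.901 (Mvk), and line values spread from -0.611 (Fasn) to 0.904 (Dhcr7).

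The promoters of the 28 genes were read for the motifs of SREBPs and of the factors that act beside them. SREBPs bind the sterol regulatory element together with NF-Y, which binds CCAAT, and Sp1, which binds GC boxes. Promoters, 250 bases before to 50 after each RefSeq start (GRCm38.p6), were matched for 22 of the 28 genes, not for Fdps, Fdft1, Sqle, Stard4, Scd1 or Scd2. Each motif was searched on both strands, and a gene with several starts counted once. The element TCACNCCAC was found in 1 of 22, Hmgcs1, against 1.44% of 27025 genes. Only this exact string was searched in this window, so elements that differ from it or lie elsewhere were not counted. CCAAT was found in 19 of 22 (86.4%, against 41.1%), GGGCGG in 19 of 22 (86.4%, against 38.2%) and the E-box CACGTG in 5 of 22 (22.7%, against 8.09%). These shares are given as a description, and promoters of active genes were not set apart in the background. On the strand of the gene alone, CCAAT was in 10 of 22 (45.5%, against 23.7%). The Hmgcs1 promoter (chr13:119690101-119690400, plus strand) is shown because it held the full element, in capitals, which begins 137 bases before the start.
Hmgcs1 promoter: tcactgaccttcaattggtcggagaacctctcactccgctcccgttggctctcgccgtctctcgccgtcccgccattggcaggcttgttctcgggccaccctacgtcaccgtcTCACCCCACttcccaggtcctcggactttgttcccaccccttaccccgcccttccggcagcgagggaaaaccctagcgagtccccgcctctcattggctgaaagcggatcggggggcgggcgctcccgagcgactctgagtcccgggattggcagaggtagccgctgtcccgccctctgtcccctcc
For comparison, the CCAAT boxes nearest the start of Insig1 (chr5:28071184-28071212, plus strand, 216 bases before the start), Srebf2 (chr15:82147122-82147150, plus strand, 135 before) and Fasn (chr11:120824590-120824618, minus strand, 59 before) are shown with their flanks. Capitals mark the box, which in all 3 lies on the opposite strand and so reads ATTGG. In Fasn a CCAAT on the strand of the gene overlaps the marked box. In 14 of the 19 genes with a box the one nearest a start lay on the opposite strand.
Insig1: cgccctcctcccATTGGctccggcggcct
Srebf2: cttcgcgcgccgATTGGctaatgcaagcc
Fasn: cctcggtgtccaATTGGtttcgatgtgga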

How the data were processed

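RNA from 10 cell lines and 12 tumors was sequenced as stranded mRNA libraries (single-end, 75 bases), per the labels' protocols. The authors deposited raw read counts per gene in 1 table for lines and 1 for tumors. Per the submitters' processing notes, bcl2fastq 1.9.0, Trim Galore, STAR and mm10 were used. The counting settings and annotation are not given in the sources used here. The 28 genes and all other gene lists were chosen with earlier results of these data known.

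Genes with low counts were removed with filterByExpr, and edgeR 4.0.16 (TMM factors, robust quasi-likelihood test, Benjamini-Hochberg adjustment, threshold 0.05) was fitted to lines, to tumors and to all 22 libraries. The standard errors given for edgeR were computed as the absolute log2 fold change over the square root of the F statistic of that test. Fits were tested on simulated counts. The floor of 3 counts is 0.122 CPM in the smallest library. Alternatives were RLE and upper quartile factors, no filter, DESeq2 1.42.0, limma 3.58.1 (voom), all libraries in 1 fit, the animal as a block, and leaving out libraries. The block came from titles shared by 5 animals (consensus correlation 0.287). Correlations of all genes with Hmgcs1 (log2 of CPM + 0.5, mean of at least 5 CPM) were added after seeing the data. Libraries of a group are separate lines or tumors. Named were all 28 genes, in full those of smallest p, largest change or main role, and up to 4 genes of each other list by p. A few genes that this rule names are not reported here.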

Additional observations from a re-analysis of the deposited data

Results flagged for a closer look

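Of 112 groups of values (28 genes in 4 groups of libraries), 8 (7.14%) held 1 library that stood apart from the rest by Dixon's criterion, which chance meets in about 1 in 20 groups. KO tumor 7 stood above the other KO tumors in Hmgcs1, at 280.5 CPM against 100.4 to 186, and in Insig1, at 111.1 CPM against 36.9 to 59.2. KO tumor 6 stood above them in Pmvk (35.31 CPM against 20.3 to 24.5), Acly (370.8 CPM against 143 to 244) and Scd2 (1196 CPM against 524 to 833). WT tumor 1 stood above the other WT tumors in Nsdhl, at 45.3 CPM against 20.3 to 24.4. Among WT lines, line 2 was high in Insig1 (362.4 CPM against 194 to 241) and line 4 in Scd2 (5737 CPM against 3278 to 3955).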

How the results depend on the processing

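In tumors against lines all 28 genes were called lower in KO under every alternative, and 26 or 27 in WT, with medians of -1.45 to -1.29 in WT and -1.85 to -1.67 in KO, and of -1.59 to -1.25 and -1.91 to -1.75 on leaving out 1 library. On leaving out 1 library the median of KO against WT ran from 0.10 to 0.205 in lines, -0.497 to -0.088 in tumors and -0.601 to -0.259 for the difference. Between KO and WT 0 of 28 were called in lines, in tumors and for their difference under every alternative, DESeq2 included. Of 2800 values of single genes 11 lost their call and 68 changed sign, none of which was called. Upper quartile factors moved the median of all genes from 0.129 to 0.234 in WT and from 0.172 to 0.299 in KO, and testing without the filter to 0.066 and 0.511. With the animal as replicate block no call of the 28 genes changed. Depth limits little, since all 28 genes lay above the floor.

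Counts over all genes moved, and the cause was not tested. For KO against WT in lines (2 called) there were 1 with upper quartile factors, 46 with DESeq2, 5 in the fit of all libraries and 0 to 2 on leaving out 1 library (0 without any KO line or WT line 1, 2 or 5, and 1 without WT line 4). In tumors (2 called) there were 889 with DESeq2, 4 with limma-voom, 40 in the fit of all libraries, 0 without the 3 tumors of highest acinar means and 2 to 82 on leaving out 1, the counts above 2 being 82 (KO tumor 2 left out), 57 (WT tumor 2), 6 (WT tumor 4), 4 (KO tumor 8) and 3 (KO tumor 3). For the difference (0 called) there were 67 with DESeq2 and 0 to 1 on leaving out 1 (1 without KO line 2). CCAAT was in 10 promoters on the sense strand alone, against 19.

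Signs that turned were those of Scd1 in lines with limma-voom (0.022), Lss in tumors with upper quartile factors (0.012) and limma-voom (0.017), Hmgcs1 (-0.01) and Ebp (0.124) without the tumors of highest acinar means, and Mvk for the difference with RLE (0.024), upper quartile factors (0.024), DESeq2 (0.024), limma-voom (0.022) and the animal as replicate block (0.035). Others turned on leaving out 1 library, which gave these ranges. The log2 values in lines spanned 0 for Acly -0.099 to 0.029, Elovl6 -0.038 to 0.276, Fasn -0.206 to 0.05, Idi1 -0.01 to 0.163, Pmvk -0.15 to 0.14, Scd1 -0.14 to 0.209, Scd2 -0.037 to 0.198, Sqle -0.027 to 0.174, Srebf1 -0.068 to 0.17, Srebf2 -0.11 to 0.04 and Stard4 -0.135 to 0.067. The log2 values in tumors spanned 0 for Acat2 -0.539 to 0.1, Ebp -0.21 to 0.076, Elovl6 -0.379 to 0.117, Hmgcs1 -0.14 to 0.35, Hsd17b7 -0.385 to 0.26, Lss -0.235 to 0.363, Mvk -0.0014 to 0.351, Nsdhl -0.443 to 0.033 and Pmvk -0.537 to 0.074. The log2 values for the difference of tumors and lines spanned 0 for Elovl6 -0.398 to 0.069, Hmgcs1 -0.244 to 0.216, Lss -0.335 to 0.249, Mvk -0.179 to 0.164 and Pmvk -0.503 to 0.087.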
